A study of Mus musculus with 9 samples.

Results

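*Ngfr*, *Lgi2*, *Bex1* and *Brinp3* were followed across 9 mouse mammary tumours, as nervous-system genes whose counts changed most between HR1 tumours and tumours of the LM1 and LM9 lines. These 4 genes of the 14108 listed were chosen on that difference, so their values in HR1 against LM1 and LM9 are given as a description, with no test. The comparison of LM9 with LM1 did not enter the choice and was tested.

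HR1 is a cell line, non-metastatic in its reported use, from a mammary tumour of a transgenic mouse expressing PIK3CA H1047R from the ubiquitous CAG promoter. PIK3CA encodes the catalytic subunit of the lipid kinase PI3K, and H1047R is an activating change that all 3 models carried. LM1 and LM9 were grown from tumour cells in the lungs of mice that had received HR1 cells with the *piggyBac* transposon system, and each is a single derived line. From every line 250000 cells were placed in the mammary fat pads of female NOD/SCID mice 4 to 8 weeks old, which lack working T and B cells, and GFP-positive cells were sorted from tumours resected before 1500 mm3. RNA-seq was made from 3 tumours of each model, numbered by the labels, and nothing in the labels says which hosts or cell batches they share, so p-values measure the spread between these tumours. The series set out to study the transcription factor NFIB in metastatic colonization, with HR1 as the line of low *Nfib* and LM1 and LM9 as the lines of high *Nfib*.

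All 4 genes are best known from neurons and glia. *Ngfr* encodes p75, the neurotrophin receptor that binds every neurotrophin, works beside the Trk receptors and sortilin-type co-receptors, and marks neural crest cells and the basal cells of several epithelia, the mammary gland among them. *Bex1* encodes a small X-linked adaptor that binds the intracellular part of p75 and has been tied to the cell cycle and neuronal differentiation. *Lgi2* encodes a secreted leucine-rich repeat protein of the LGI family, whose members bind the ADAM22 group of synaptic membrane proteins, and *Brinp3* encodes a glycoprotein of the BRINP family, named for its induction in neural cells by bone morphogenetic protein and retinoic acid.

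The 250 bases before the RefSeq start of each gene are shown because the pair that was high in LM1 and LM9 and the pair that was high in HR1 have starts of unlike CpG content. They are written 5′ to 3′ on the gene's strand from GRCm38.p6, with CpG dinucleotides in capitals. *Ngfr* starts on the minus strand of chromosome 11 (chr11:95587699-95587948) and *Lgi2* on the minus strand of chromosome 5 (chr5:52566307-52566556). *Bex1* starts on the minus strand of chromosome X (chrX:136215514-136215763). RefSeq lists 3 starts for *Brinp3* on the plus strand of chromosome 1, of which the most upstream (chr1:146495379-146495628) and the most downstream (chr1:146497437-146497686) are shown.
Ngfr: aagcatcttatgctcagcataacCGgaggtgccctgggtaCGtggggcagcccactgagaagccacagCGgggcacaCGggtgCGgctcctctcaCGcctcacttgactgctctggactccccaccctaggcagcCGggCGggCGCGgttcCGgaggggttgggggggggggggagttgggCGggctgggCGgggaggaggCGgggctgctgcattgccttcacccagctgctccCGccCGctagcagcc
Lgi2: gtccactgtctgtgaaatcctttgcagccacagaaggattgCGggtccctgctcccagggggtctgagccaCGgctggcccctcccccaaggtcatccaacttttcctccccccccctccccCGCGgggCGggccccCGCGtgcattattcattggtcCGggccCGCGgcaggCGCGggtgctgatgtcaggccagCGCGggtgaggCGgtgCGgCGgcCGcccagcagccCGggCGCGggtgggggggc
Bex1: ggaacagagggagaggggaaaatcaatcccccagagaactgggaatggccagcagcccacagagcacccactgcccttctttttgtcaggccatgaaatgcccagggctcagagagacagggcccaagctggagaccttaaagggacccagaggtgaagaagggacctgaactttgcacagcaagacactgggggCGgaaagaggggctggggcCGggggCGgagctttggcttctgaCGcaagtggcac
Brinp3, upstream start: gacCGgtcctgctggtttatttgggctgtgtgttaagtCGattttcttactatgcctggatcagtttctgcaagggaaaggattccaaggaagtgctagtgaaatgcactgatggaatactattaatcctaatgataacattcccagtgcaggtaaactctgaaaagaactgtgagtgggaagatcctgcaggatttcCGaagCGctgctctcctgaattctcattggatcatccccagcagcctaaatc
Brinp3, downstream start: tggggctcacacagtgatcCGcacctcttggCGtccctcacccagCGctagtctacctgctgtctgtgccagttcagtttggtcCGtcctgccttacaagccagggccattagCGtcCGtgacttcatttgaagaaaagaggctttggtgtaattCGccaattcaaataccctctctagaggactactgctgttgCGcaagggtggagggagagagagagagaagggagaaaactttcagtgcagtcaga

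The *Ngfr* start held 16 CpG dinucleotides at a G+C content of 70.4%, and the *Lgi2* start held 21 at 72.4%. The *Bex1* start held 4 at 59.6%. The upstream and downstream starts of *Brinp3* held 4 at 44.8% and 8 at 52.8%. Over all 32851 RefSeq starts the median was 6 CpG dinucleotides and 52.4% G+C, with an upper quartile of 16 CpG and 61.2%, so *Ngfr* and *Lgi2* lay at or above the upper quartile in both measures. *Bex1* was below the median in CpG and between the median and the upper quartile in G+C. The upstream *Brinp3* start was below the median in CpG and under the lower quartile of 45.2% in G+C, and the downstream start was just above the median in both. The letters of the NFI half-site, TTGGC, were searched on both strands because the series is about an NFI factor. They were in the *Bex1* start, 23 bases before the start site, in the downstream *Brinp3* start at 223 and 94 bases before it, and not in the *Ngfr*, *Lgi2* and upstream *Brinp3* windows. That half-site is in 41.5% of all windows, and the full NFI palindrome, a half-site facing its own complement and present in 0.0365% of windows, was in none of those printed. The GC box letters GGGCGG, in 32.7% of all windows, occurred 4 times in the *Ngfr* window, 2 times each in the *Lgi2* and *Bex1* windows and not in the *Brinp3* windows. With 4 genes these are descriptions of sequence, not of binding.

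Total counts per tumour ran from 32393958 to 46681945, at which 3 counts, the upper limit used for a library with 0, corresponded to 0.063 to 0.0997 CPM. Levels are given as CPM, counts scaled to each tumour's library size after TMM correction. The tumour labelled HR1 replicate 1 stood apart, correlating with the other HR1 tumours at r = 0.878 and 0.891 over log2 CPM of the tested genes, whereas those correlated with each other at 0.961 and pairs within LM1 or LM9 at 0.986 to 0.991. Its *Nfib* level was 1343 CPM, against 23.9 and 18.3 CPM in HR1 replicates 2 and 3 and 420.6 to 791 CPM in the LM tumours, which goes against the low-*Nfib* description of its model. The value without it is therefore given beside the printed differences that moved most when it was left out. In these sorted but bulk samples, fewer cells of a type and less RNA per cell cannot be told apart.

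*Ngfr* (Entrez 18053, chr11:95568818-95587735) was close to absent in HR1 and abundant in LM1 and LM9. HR1 replicates 1, 2 and 3 had 9, 7 and 5 counts (0.299, 0.158 and 0.129 CPM). LM1 had 50.1, 56.8 and 50.0 CPM, and LM9 had 76.3, 159.1 and 111.4 CPM. Every LM tumour was above every HR1 tumour, and every LM9 tumour above every LM1 tumour. The means were 0.195 ± 0.0913 CPM in HR1, 52.3 ± 3.87 in LM1 and 116 ± 41.6 in LM9 (SD, n = 3 each). Summed over tumours, the level in LM1 was 282 times that in HR1 (95% exact counting interval 185 to 457) and in LM9 619 times (405 to 1001). These intervals, and those below, cover counting error only, since PCR copies cannot be told from separate molecules.

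*Bex1* (Entrez 19716, chrX:136213972-136215513), the p75 adaptor, had the opposite pattern. It was at 54.5, 49.2 and 43.8 CPM in the HR1 tumours, with a mean of 49.2 ± 5.35 CPM (SD, n = 3). Of the 6 LM tumours, LM1 replicate 1 had 1 count and the other 5 had 0. HR1 was thus 6391 times LM1 (interval 1147 to 252486), and LM9 was at least 735-fold lower than HR1, taking 3 counts per library for the zeros. The HR1 tumours lay close together, replicate 1 included, and did not approach the LM tumours. Reads could be shared with near copies: 30.9% of the 1268 distinct 50-base windows in the annotated *Bex1* transcript occur also in *Bex2*, *Bex4* or *Tceal7*, none of which was among the genes analysed here. *Tceal7* runs antisense across *Bex1*, and the strand setting of the counting was not given in the sources used here, so the level may hold reads of these genes.

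*Lgi2* (Entrez 246316, chr5:52533517-52566462) was switched on in LM1 and higher still in LM9. In HR1 only replicate 2 had any count, which was 1. LM1 replicates had 6.74, 6.14 and 7.14 CPM and LM9 replicates 35.8, 40.1 and 38.3 CPM. No model overlapped another among the 9 tumours, and the spread within LM1 and LM9 was small, at 7.54% and 5.73% of the mean. The means were 6.67 ± 0.503 CPM in LM1 and 38.1 ± 2.18 CPM in LM9 (SD, n = 3). LM1 was 755 times HR1 and LM9 4312 times, with intervals of 135 to 29842 and 773 to 170329 that are wide because HR1 held 1 count.

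*Brinp3* (Entrez 215378, chr1:146494760-146902472) was the most variable of the 4 within a model. HR1 replicates 1, 2 and 3 had 37.3, 162.6 and 262.6 CPM, a 7.03-fold range, with a mean of 154 ± 113 CPM (SD, n = 3). LM1 replicate 1 had 3 counts and the remaining 5 LM tumours had 0. HR1 was 7152 times LM1 (interval 2447 to 34684) and LM9 at least 2306-fold lower than HR1. The low HR1 value came from replicate 1, and without it the HR1 mean was 213 CPM, with replicates 2 and 3 differing 1.62-fold. A level of 37.3 CPM in replicate 1 was still far above that of any LM tumour, so the order of the models was the same with and without it. Of the annotated *Brinp3* windows 1.60% were shared, with an overlapping antisense transcript, against 0.854% for *Ngfr* and 0 for *Lgi2*.

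**Figure D1:**
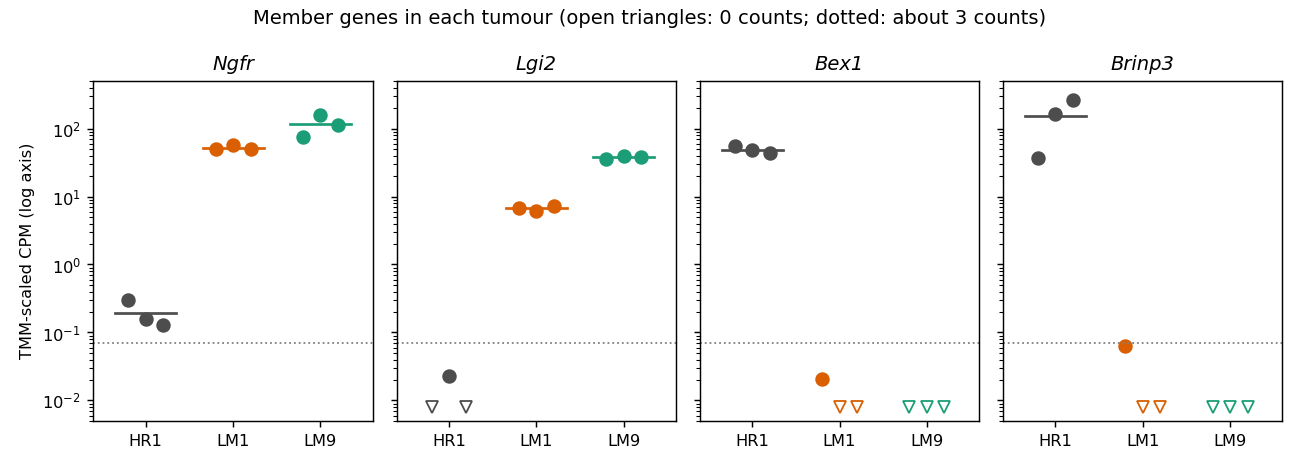
Level of each gene in each tumour as TMM-scaled CPM on a log axis, for 3 tumours of HR1 (grey), LM1 (orange) and LM9 (green). Points are tumours, bars are means of groups in which every tumour had more than 3 counts, open triangles are tumours with 0 counts, and the dotted line lies at about 3 counts. Filled points of *Ngfr* and *Lgi2* rise from HR1 through LM1 to LM9, and those of *Bex1* and *Brinp3* are high in HR1 alone.

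These differences sat at the ends of the ranking over 12377 genes (those whose mean over tumours reached 1 CPM), which is how the genes were found. By fitted log2 difference of LM1 and LM9 together from HR1, *Lgi2* was number 1 and *Ngfr* number 5 among increases, and *Brinp3* number 1 and *Bex1* number 2 among decreases. In LM1 alone *Ngfr* ranked 16 and *Lgi2* 6, and in LM9 alone 6 and 1. All 4 had LM tumours that did not overlap HR1, as 29.9% of the 14086 tested genes did, and nothing is read from that count because the choice of genes fixed it. Other genes with a nervous-system role lay in the same ranges without being among the 4, for example *Homer2*, a postsynaptic scaffold (number 8 among increases), and *Gabrd*, a GABA receptor subunit (number 11 among decreases), both named after their values were seen.

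Per kilobase of exon, where levels of different genes can be set side by side, mean *Bex1* in HR1 was 41.4 CPM per kb and mean *Brinp3* 22.0 CPM per kb. *Ngfr* reached 15.2 CPM per kb in LM1 and 33.5 CPM per kb in LM9. *Lgi2* was lower, at 1.02 and 5.83 CPM per kb. On this scale the 2 genes of HR1 and *Ngfr* in LM9 were of one order of size, and *Lgi2* was below *Ngfr* in both LM1 and LM9.

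LM9 and LM1 were then compared, the contrast that played no part in choosing the genes and in which edgeR's quasi-likelihood F-test called 22.0% of genes at an adjusted p of 0.05. Non-overlap with LM9 higher, as both tested genes had, was seen in 31.9% of all genes. *Lgi2* was higher in LM9 by 2.51 on the log2 scale (SE 0.24, 5.71-fold, adjusted p = 5.9e-04), in 3 of 3 LM9 tumours, and the difference was 2.44 to 2.56 when any of the 9 tumours was left out, with adjusted p from 9.1e-06 to 0.0081. *Ngfr* was higher in LM9 by 1.14 (SE 0.27, 2.21-fold, adjusted p = 0.0199), again in 3 of 3 LM9 tumours. The *Ngfr* call depended on single tumours: the difference ranged from 0.81 to 1.37, and the adjusted p was 0.0830 without LM1 replicate 1, 0.050 (just above the threshold) without LM1 replicate 2, 0.0800 without LM1 replicate 3, 0.0831 without LM9 replicate 2 and 0.0616 without LM9 replicate 3. The difference was smallest without LM9 replicate 2, the tumour with the highest *Ngfr*. All these fits took the spread from the 3 models together. The *Ngfr* adjusted p was 0.0031 without HR1 replicate 1 and 0.0022 when only LM1 and LM9 were fitted. Exact two-sided permutation tests of log2 CPM gave p = 0.1 for each gene, the smallest that 3 against 3 tumours allow. For *Bex1* and *Brinp3* both models were at or under 3 counts per tumour, so a difference between LM9 and LM1 was not detectable at this depth.

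Set against *Nfib* itself, the 4 genes divided the tumours as its level did, except in HR1 replicate 1, the tumour that stood apart from its model. HR1 replicate 1 had the highest *Nfib* of the 9 tumours and yet had 9 counts of *Ngfr*, 0 of *Lgi2*, 54.5 CPM of *Bex1* and 37.3 CPM of *Brinp3*. HR1 replicates 2 and 3 had 23.9 and 18.3 CPM of *Nfib*, and the LM tumours 420.6 to 791 CPM. Between the LM lines, *Ngfr* and *Lgi2* were higher in LM9, where *Nfib* was 420.6 to 583 CPM, than in LM1, at 579 to 791 CPM. Over all tumours *Nfib* differed between LM and HR1 by 0.39 on the log2 scale (adjusted p = 0.802), and without HR1 replicate 1 by 4.85 (adjusted p = 4.6e-07). Of the other NFI factors, *Nfia* was higher in LM1 and LM9 together by 2.59 (adjusted p = 0.0106), or by 3.78 without HR1 replicate 1, with 1.15 ± 1.17 CPM in HR1, 2.16 ± 0.387 in LM1 and 21.3 ± 3.76 in LM9 (SD, n = 3). *Nfic* and *Nfix* did not pass the test, with differences of 0.15 and 0.20.

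**Figure D2:**
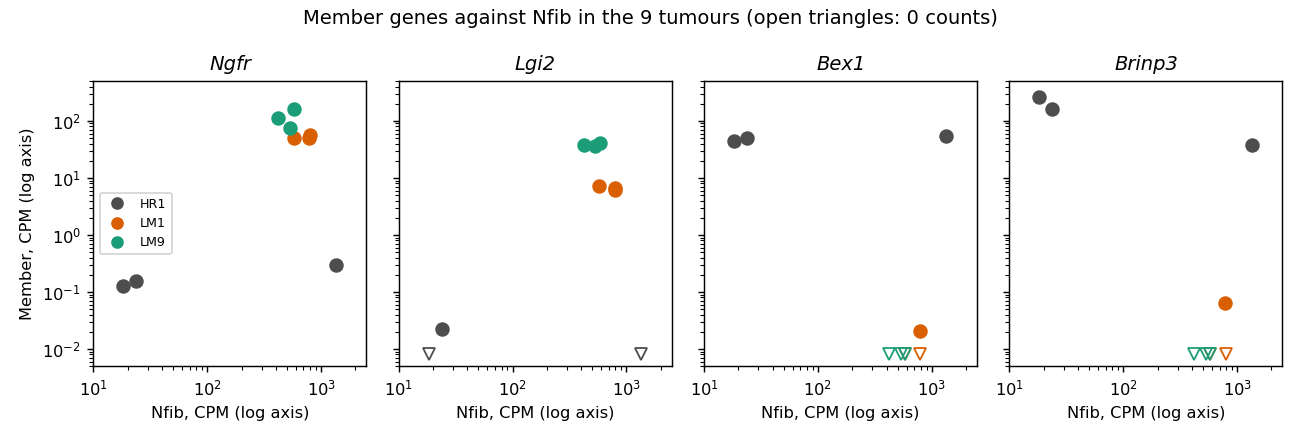
Level of each gene against *Nfib* in the same tumour, both as CPM on log axes, for HR1 (grey), LM1 (orange) and LM9 (green), with open triangles for 0 counts. The HR1 tumour at 1343 CPM of *Nfib* sits with the other HR1 tumours in the level of each gene, not with the LM tumours.

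The rest of the neurotrophin pathway did not move as a block with *Ngfr*. Of all genes tested, 43.6% were called in LM1 and LM9 together against HR1 (19.9% higher and 23.6% lower), 35.5% in LM1 alone and 42.3% in LM9 alone, the first at a median difference of -0.05 on the log2 scale. Without HR1 replicate 1, 56.0% of genes were called in LM1 and LM9 together (27.5% higher and 28.5% lower). A call in LM1 and LM9 together is made on the average of the lines and can come from a single line. Of 3 ligands, *Ntf3* rose, *Bdnf* did not pass the test and *Ntf5* did not pass the filter on low counts, giving a median of 0.33 over the 2 tested. Without HR1 replicate 1 all 3 were tested, *Bdnf* and *Ntf5* fell, and the median was -0.91. *Ntf3*, the ligand preferred by TrkC, was higher by 1.31 (adjusted p = 7.6e-04) with all 6 LM tumours above the 3 HR1 tumours. The *Ntf3* call stood whichever tumour was left out. *Bdnf*, the TrkB ligand, fell in LM1 alone by 1.49 (adjusted p = 0.0147, and 0.050 to 0.053 without any single LM1 tumour). It differed between the LM lines, being 1.68 higher in LM9 than in LM1 (adjusted p = 0.0151), where the adjusted p was 0.051 to 0.064 without LM1 replicate 1, LM1 replicate 3, LM9 replicate 2 or LM9 replicate 3.

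Of the 10 receptors and co-receptors on the list beside *Ngfr*, 8 were tested, and 4 fell, beside 23.6% of all genes, with a median difference of -2.59 over the 8 (-1.70, with 4 falling and *Lingo1* rising, without HR1 replicate 1). *Sort1*, or sortilin, the co-receptor with which p75 binds pro-neurotrophins, was at 2.16 to 13.6 CPM in the HR1 tumours and at most 0.883 CPM in LM1 and 0.180 CPM in LM9. It fell by 4.47 on the log2 scale (adjusted p = 3.1e-04), which was -3.74 without HR1 replicate 1, so that the receptor and this partner were abundant in different models. *Nradd*, a p75 homologue with a death domain, fell by 3.29 (adjusted p = 0.00284), or by 2.08 without HR1 replicate 1 (adjusted p = 0.0021), and was lowest in LM1. Against HR1 it was called in LM1 (-5.13, adjusted p = 0.0025) and not in LM9. *Sorcs2*, a sortilin relative, fell by 2.43 (adjusted p = 0.0174), a call that was lost without HR1 replicate 3 (-1.38, adjusted p = 0.11). It was called against HR1 in LM9 (-4.00, adjusted p = 0.0083) and not in LM1. *Ntrk2*, which encodes TrkB, was called lower because of a single tumour: HR1 replicate 2 had 38.3 CPM and no other tumour more than 0.335 CPM, and without it the difference was -1.46 (adjusted p = 0.17). *Ntrk3*, which encodes TrkC, was low throughout, at no more than 1.27 CPM in any tumour. *Lingo1*, a p75 co-receptor in neurons, had 171 CPM in HR1 replicate 1 against 1.10 and 0.154 in the other HR1 tumours. Its difference turned from -2.74 (adjusted p = 0.145) to 3.73 (adjusted p = 0.0045) when that tumour was left out.

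Inside the cell, p75 works through adaptors. Of the 13 tested beside *Bex1*, 1 rose and 3 fell, with a median difference of -0.20, and without HR1 replicate 1, 2 rose and 5 fell, where 43.6% and 56.0% of all genes were called. *Traf6*, a ubiquitin ligase that p75 recruits, rose by 0.50 (adjusted p = 0.0263), and its adjusted p was 0.053 to 0.077 without HR1 replicate 2, LM1 replicate 2 or any single LM9 tumour. *Rhoa*, the GTPase that p75 activates, fell by 0.57 (adjusted p = 0.00676), and *Kidins220*, a scaffold that joins p75 and Trk receptors, fell by 0.95 (adjusted p = 0.00304), each in every fit that left out a tumour. *Fscn1* fell by 0.43 (adjusted p = 0.0283), with adjusted p of 0.051 to 0.088 without HR1 replicate 2 or 3, any single LM1 tumour, or LM9 replicate 1 or 2. *Rhoa* and *Kidins220* were called against HR1 in each line, and *Traf6* and *Fscn1* in LM9 only. Of 7 proteases and gamma-secretase subunits that cleave p75, 2 fell, a share near the 23.6% of all genes. Without HR1 replicate 1, 3 fell, beside 28.5% of all genes. *Psen2* fell by 2.18 (adjusted p = 2.1e-04) and *Aph1a* by 0.37 (adjusted p = 0.0195, and 0.051 without LM9 replicate 1). The other 5, *Adam17* among them, did not pass the test.

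Few relatives of the 4 genes could be tested, 1 of 3 other LGI genes, 3 of 11 other BEX and TCEAL genes and 0 of 2 other BRINP genes. *Lgi4*, the LGI member known from Schwann cells, stayed under 1 CPM in every tumour and fell by 1.92 (adjusted p = 0.0157, and 0.082 without HR1 replicate 2). Against HR1 it was called in LM9 (-2.61, adjusted p = 0.0134) and not in LM1 (-1.24). Of 8 LGI receptors and partners 4 were tested and 1 fell, beside 23.6% of all genes, or 2 without HR1 replicate 1. *Adam22*, the receptor of LGI proteins, fell by 1.83 (adjusted p = 0.0171), with adjusted p of 0.054 without HR1 replicate 2 and 0.060 without HR1 replicate 3. It was called against HR1 in LM9 (-2.77, adjusted p = 0.0093) and not in LM1. *Dlg4*, the synaptic scaffold PSD-95 that binds ADAM22, moved in opposite directions in the LM lines: it was lower than HR1 in LM1 by 1.11 (adjusted p = 0.0099) and higher in LM9 by 0.97 (adjusted p = 0.0147, and up to 0.053 without LM9 replicate 1 or 2). The difference between the lines was 2.08 (adjusted p = 0.00165), with all LM9 tumours above all LM1 tumours, and it passed whichever tumour was left out. Next to *Bex1* in family and on the chromosome, *Tceal8* fell by 3.11 (adjusted p = 0.00147), and *Tceal9* fell by 0.72 (adjusted p = 0.0246), or by 0.33 without HR1 replicate 1. The *Tceal9* adjusted p was 0.050 to 0.055 without LM1 replicate 2, LM9 replicate 2 or LM9 replicate 3. In LM9 alone they fell by 4.67 and 1.19 (adjusted p = 0.0013 and 0.0067). In LM1 alone neither passed, at -1.56 and -0.25 (adjusted p = 0.069 and 0.48). *Bex3*, whose product also binds p75, was at 182 ± 108 CPM in HR1, 215 ± 24.8 in LM1 and 95.3 ± 9.07 in LM9 (SD, n = 3) and did not pass the test against HR1. Its HR1 mean rested on replicate 1, at 306 CPM against 131 and 110, and without that tumour it was higher in LM1 by 0.85 (adjusted p = 0.00109). *Brinp1* and *Brinp2* were not analysed here.

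**Figure D3:**
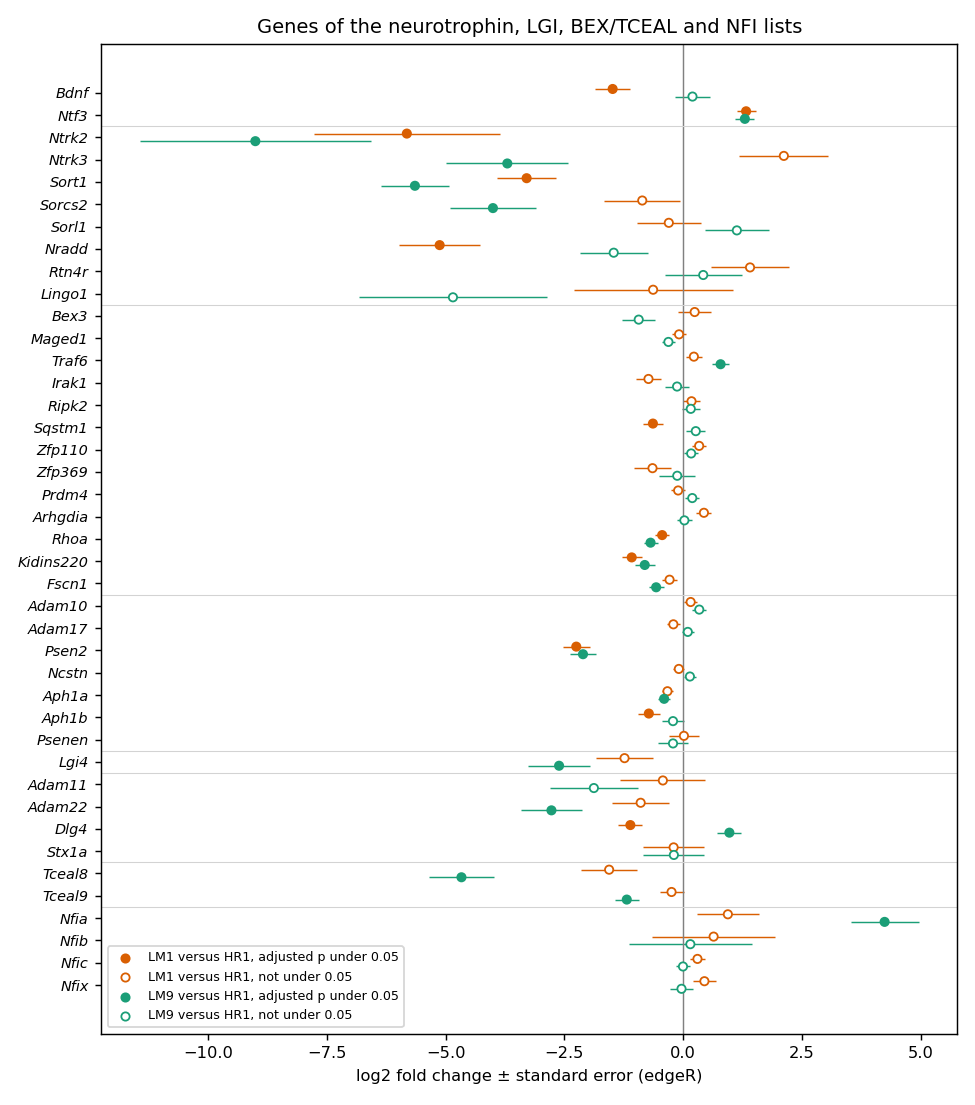
Log2 fold change against HR1 with its standard error for tested genes of the neurotrophin, LGI, BEX/TCEAL and NFI lists, LM1 in orange and LM9 in green; filled points have an adjusted p-value under 0.05 and grey lines separate the lists. *Ntf3* lies to the right in both lines, *Sort1* and *Psen2* to the left in both, and *Dlg4* on opposite sides; the long bar of *Ntrk2* reflects its single high HR1 tumour.

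Markers of neural cells were examined beside these results. Of 22 neuron and neuroendocrine markers 9 were analysed, with a median difference of 1.84, and 4 rose in LM1 and LM9 together (*Ncam1*, *Gap43*, *Tubb3* and *Ina*), beside 19.9% of all genes. Against HR1, only *Ncam1* and *Gap43* of these were called in each line. *Tubb3* was called in LM1 (2.72, adjusted p = 0.0084) and not in LM9, and *Ina* in LM9 (5.16, adjusted p = 0.0028) and not in LM1. *Ncam1*, a neural adhesion molecule, rose by 2.03 (adjusted p = 2.2e-04), and *Gap43*, a growth cone protein, by 3.36 (adjusted p = 6.3e-04), from at most 1.01 CPM in HR1 to 12.4 ± 0.672 CPM in LM1 and 2.81 ± 0.612 CPM in LM9 (SD, n = 3). *Tubb3*, neuronal tubulin, rose by 1.77 (adjusted p = 0.0249), and by 2.86 without HR1 replicate 3. *Ina*, an intermediate filament of neurons, did not exceed 0.595 CPM in any tumour. The summed level of the 9 genes was 243 CPM in HR1 replicate 1 and 65.8 and 67.2 CPM in HR1 replicates 2 and 3. It was 443 to 515 CPM in LM1 and 293.5 to 401 CPM in LM9. Without HR1 replicate 1, 6 of the 9 rose, beside 27.5% of all genes. The defining neuronal genes *Rbfox3*, *Snap25*, *Syt1* and *Nefl* and the neuroendocrine gene *Chga* were not analysed here.

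Of 12 neural crest and Schwann cell markers 7 were analysed, and they split, 3 rising and 4 falling, beside 19.9% and 23.6% of all genes. *Nes*, the intermediate filament nestin, rose by 2.92 (adjusted p = 0.00453), or by 4.08 without HR1 replicate 1, *Egr2*, the transcription factor of myelinating Schwann cells, by 2.89 (adjusted p = 2.7e-04) and *Mitf*, the melanocyte factor, by 0.93 (adjusted p = 0.00946), each with every tumour left out in turn. *Nes* and *Egr2* were called against HR1 in each line, but *Mitf* in LM9 (1.66, adjusted p = 0.0014) and not in LM1. *Mbp*, which encodes a myelin protein, fell by 2.18 (adjusted p = 0.00745, and by 1.36 without HR1 replicate 2), and *Pmp22* fell by 0.82 (adjusted p = 0.0256), or by 0.35 without HR1 replicate 1, with adjusted p of 0.054 to 0.059 without LM1 replicate 1, LM1 replicate 2 or LM9 replicate 1. *S100b* and *Gfap* were called lower on account of HR1 replicate 1, where *S100b* was 308 CPM against at most 7.37 CPM in any other tumour. Without that tumour *S100b* was higher in the LM tumours by 2.58, and *Gfap* differed by -0.34 (adjusted p = 0.53). Both calls were also lost without any single LM tumour (adjusted p of 0.050 to 0.081). Without HR1 replicate 1, 4 of the 7 markers rose and 2 fell, beside 27.5% and 28.5% of all genes. *Sox10* and *Foxd3*, which define the neural crest, were not analysed here. The summed level of the 7 genes was 469.9 CPM in HR1 replicate 1 and 74.4 and 62.1 CPM in HR1 replicates 2 and 3. It was 246 to 367 CPM in LM1 and 372 to 487 CPM in LM9. The part of neural or glial cells in the levels of the 4 genes was not tested.

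The REST complex, which represses neuronal genes outside the nervous system, had a median difference of 0.06. Of its 9 genes 2 fell, a share near the 23.6% of all genes, and without HR1 replicate 1, 1 rose and 3 fell. *Rcor3* fell by 0.73 (adjusted p = 0.00342) and *Hdac2* by 0.39 (adjusted p = 0.0391). The *Hdac2* difference was -0.20 without HR1 replicate 1, and its adjusted p was 0.069 to 0.085 without HR1 replicate 1, any single LM1 tumour or any single LM9 tumour. *Hdac2* was called against HR1 in LM9 (-0.65, adjusted p = 0.0099) and not in LM1. *Rest* itself was at 2.63 to 5.28 CPM in HR1 and 4.22 to 9.62 CPM in the LM tumours, a difference of 0.77 (adjusted p = 0.0895).

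p75 also marks basal mammary cells. Of 8 other basal markers tested, 1 rose and 3 fell, beside 19.9% and 23.6% of all genes, with a median difference of 0.03, which was -0.30 without HR1 replicate 1. *Trp63*, the master factor of basal epithelium, fell by 3.48 (adjusted p = 5.5e-05), and *Acta2*, smooth muscle actin, fell by 5.32 (adjusted p = 1.1e-04) and was lowest in LM9, at 0.938 to 1.37 CPM. *Krt5* fell by 5.23 (adjusted p = 0.0102), which was -1.91 (adjusted p = 0.081) without HR1 replicate 3. It was called against HR1 in LM9 (-8.51, adjusted p = 0.0094) and not in LM1. *Oxtr*, the one that rose, stayed under 1 CPM. The summed basal level was 122 CPM in HR1 replicate 1 and 679 and 482 CPM in HR1 replicates 2 and 3. It was 237 to 271 CPM in LM1 and 48.7 to 50.6 CPM in LM9, the reverse of the *Ngfr* order between LM1 and LM9. Of 7 luminal markers 1 passed the test, beside 43.6% of all genes. This was *Epcam*, called against HR1 in LM1 (-3.64, adjusted p = 0.0164) and not in LM9. In the LM lines together it fell by 2.66 (adjusted p = 0.0149), and by 1.56 without HR1 replicate 1. The luminal sum was 1500 CPM in that tumour against 316 and 94.0 CPM in the other HR1 tumours, 573 to 690 CPM in LM1 and 340.2 to 348 CPM in LM9. Without it 1 luminal marker rose and 1 fell in LM1 and LM9 together, at a median of 0.63, beside 27.5% and 28.5% of all genes. In LM1 alone, again without it, 4 of the 7 rose, at a median of 1.69, beside 26.9% of all genes.

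Markers of host cells moved with the models too. Of 7 leukocyte markers 5 fell, beside 23.6% of all genes, with a median difference of -1.92, and their summed level was 162 to 725 CPM in HR1, 117 to 128 CPM in LM1 and 169 to 196 CPM in LM9. Of 8 fibroblast and pericyte markers 7 fell, and their sum was 22040 to 35157 CPM in HR1, 10357 to 13781 CPM in LM1 and 8971 to 10533 CPM in LM9. Without HR1 replicate 1 the counts that fell were 5 and 6, beside 28.5% of all genes. Of 4 endothelial markers, *Cdh5* and *Kdr* rose by 4.96 (adjusted p = 6.7e-04) and 4.72 (adjusted p = 1.5e-04) while *Pecam1* fell by 2.22 (adjusted p = 0.00908), which was -1.28 (adjusted p = 0.051) without HR1 replicate 2, and *Emcn* fell by 3.15 (adjusted p = 0.00754). The endothelial sum was 4.40 to 23.7 CPM in HR1 and 163 to 290 CPM in the LM tumours. The adipocyte marker *Fabp4* fell by 2.14 (adjusted p = 0.00715), and by 1.32 without HR1 replicate 1. *Pecam1*, *Emcn* and *Fabp4* were called against HR1 in LM9 and not in LM1. The part of host cells in the levels of the 4 genes was not tested.

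The genes next to each of the 4, within 500 kb, were read for whether a difference was shared along the chromosome. Around *Lgi2* 8 neighbours were tested, and 4 rose in LM1 and LM9 together, at a median of 0.89 on the log2 scale against 0.04 for chromosome 5 as a whole, where 202 of 900 tested genes rose. *Ccdc149*, 62.0 kb from *Lgi2*, rose by 6.13 (adjusted p = 2.8e-04), from 0.134 ± 0.116 CPM in HR1 to 5.21 ± 0.637 in LM1 (SD, n = 3) and 15.7 to 18.5 CPM in the LM9 tumours, the same order of models as *Lgi2*. *Sod3*, the extracellular superoxide dismutase, rose by 2.11 (adjusted p = 0.0025), *Pi4k2b*, a lipid kinase, by 1.08 (adjusted p = 3.3e-04) and *Zcchc4*, an RNA methyltransferase, by 0.84 (adjusted p = 0.0025), and all 4 calls stood whichever tumour was left out. *Pi4k2b* was also higher in LM9 than in LM1, by 0.81 (adjusted p = 0.0053).

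Around *Ngfr* 19 neighbours were tested, 3 rose and 8 fell, at a median of -0.54 against -0.14 for chromosome 11, where 237 of 1164 rose and 344 fell. *Dlx3*, a homeobox factor of epithelium, rose by 3.80 (adjusted p = 0.0011), and *Fam117a* and *Zfp652* by 1.32 (adjusted p = 0.0025) and 0.79 (adjusted p = 0.0122). *Igf2bp1*, an RNA-binding protein of fetal tissue, and *B4galnt2*, a glycosyltransferase, fell by 4.95 (adjusted p = 0.0024) and 4.21 (adjusted p = 7.2e-04). *Nxph3*, a neurexophilin and at 54.2 kb the nearest tested, was at 0.122, 0.227 and 0.507 CPM on average in HR1, LM1 and LM9, a difference of 1.40 that did not pass in the LM lines together (adjusted p = 0.0823) and of 1.98 that did in LM9 alone (adjusted p = 0.0351). The latter call was lost without HR1 replicate 3, LM1 replicate 1 or any single LM9 tumour, with adjusted p up to 0.10. *Spop*, 75.4 kb away, fell by 0.60 (adjusted p = 0.0058), with -0.87 in LM1 (adjusted p = 0.0030) and -0.32 in LM9 (adjusted p = 0.111). Some neighbours of *Ngfr* were thus higher than in HR1 and others lower. Around *Bex1* 7 neighbours were tested and 3 fell, *Tceal8*, *Tceal9* and *Bhlhb9*, at a median of -0.35 against -0.01 for the X chromosome, where 89 of 441 fell. In LM1 alone none was called against HR1, and in LM9 alone these 3 were lower and 1 other higher. *Bhlhb9* fell by 3.35 (adjusted p = 0.012), but its difference was -1.08 (adjusted p = 0.16) without HR1 replicate 2. *Brinp3* had no protein-coding neighbour annotated within 500 kb, and none was tested.

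**Figure D4:**
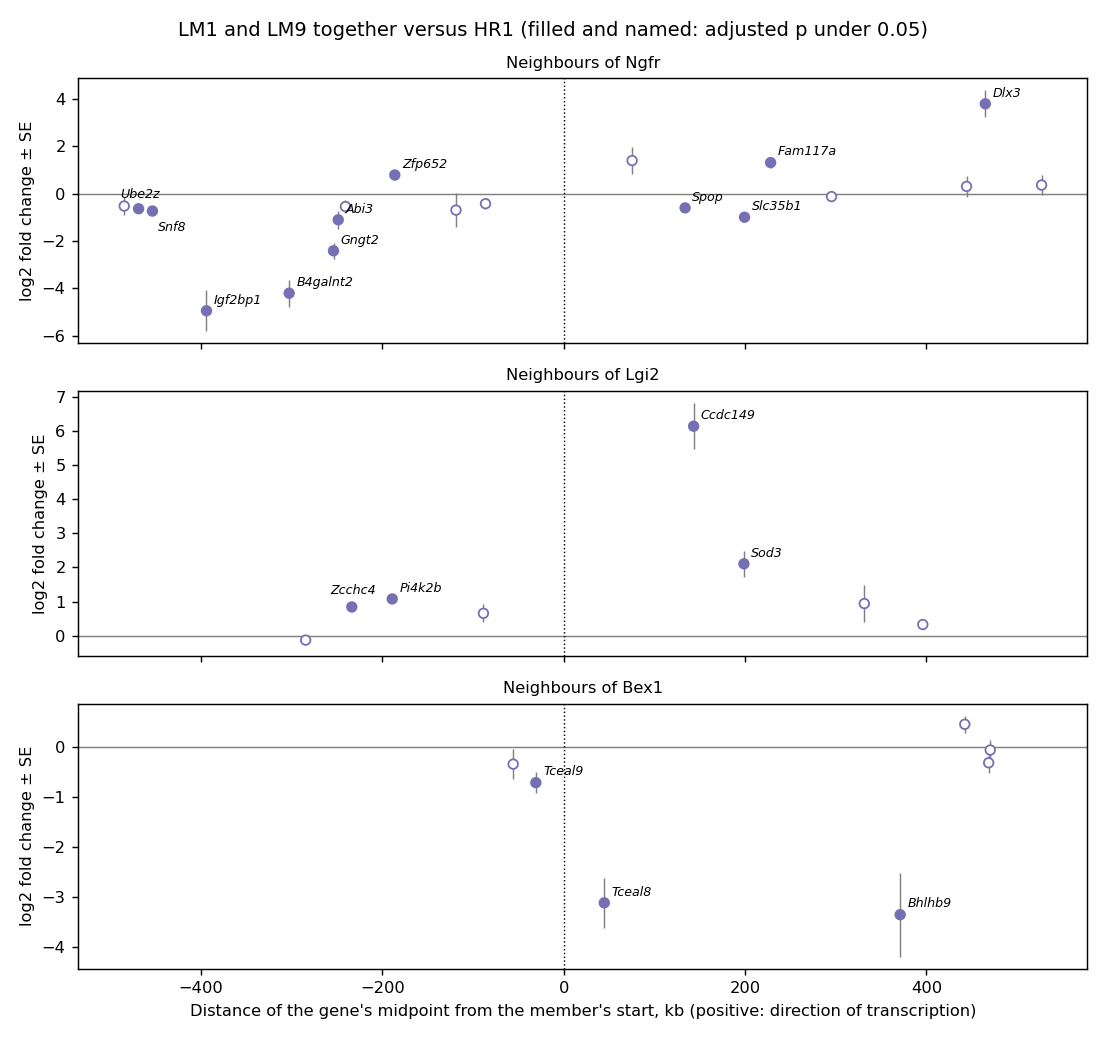
Difference of both LM lines from HR1 (log2 fold change with its standard error) for genes within 500 kb of *Ngfr*, *Lgi2* and *Bex1*, placed by the distance in kb of their midpoint from the start of the named gene, positive in its direction of transcription. Filled points have an adjusted p-value under 0.05 and carry a name. All neighbours of *Lgi2* but *Anapc4*, just under the line, lie above it, whereas those of *Ngfr* lie on both sides of it.

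Genes with the pattern most like each of the 4 were found by Pearson's r of log2 CPM over the 9 tumours, which share 3 models, among the 12377 genes. *Dnajc22*, *Kif2c*, *Gpat2*, *Ly9* and *Car13* were nearest to *Ngfr* (r = 0.991 to 0.995). *Ly9*, an immune cell surface receptor, had 0.805 CPM in HR1, 25.4 in LM1 and 35.8 in LM9 on average, and *Kif2c*, a mitotic kinesin, 21.2, 56.8 and 64.6 CPM. *Otop1*, a proton channel, was nearest to *Lgi2* (r = 0.998), at 0.401, 18.3 and 78.6 CPM, followed by *Ang2*, *Arhgap33* and *Zbp1*. *Ptgfr*, the prostaglandin F receptor, was nearest to *Bex1* (r = 0.995), at 9.43 CPM in HR1, 0.0210 in LM1 and 0 in LM9, followed by *Mief2*, *Snx4*, *St6galnac2* and *Col11a1*. *Klhl8* was nearest to *Brinp3* (r = 0.994), followed by *Col11a1*, *Cnn2*, *Snx4* and *Smoc2*. *Col11a1*, a fibrillar collagen, and *Snx4*, a sorting nexin, were near both HR1 genes. *Smoc2*, a matricellular protein, varied among HR1 tumours from 22.7 to 295 CPM, as *Brinp3* did. Since r ignores the size of a difference, *Snx4*, at 85.5 CPM in HR1 and 47.8 in LM9, was listed beside genes that were absent from LM9.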

How the data were processed

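RNA-seq of sorted GFP-positive cells from 9 tumours was used. Per the study's methods, the authors aligned single-end 50-base reads to the mouse genome with STAR and counted 5′ read ends falling in a gene's exons with QuasR's qCount (versions not given in the sources used here), and the deposited values were raw counts per gene, by Entrez number. Groups and replicate numbers came from the labels. Symbols came from RefSeq (14085 genes) and GENCODE (4), and 19 stayed without one. The count of each listed gene reached at least 7 in 3 tumours, so genes of lower counts were not analysed here.

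Counts were tested with edgeR 4.0.16 in R 4.3.3 (TMM, filter by expression leaving 14086 genes, robust quasi-likelihood F-test, 1 model over 3 groups of 3 tumours), with Benjamini-Hochberg adjustment over all tested genes and a threshold of 0.05. LM1 and LM9 together means the average of their 2 coefficients. The study's own tool, limma-voom (limma 3.58.1), and DESeq2 1.42.0 were alternatives, as were RLE factors, library size only, no filter, at least 1 CPM in 3 tumours, no robust step, only the groups compared, the replicate number as a block and each tumour left out. No pair of tumours of a model agreed within sampling noise, so none was treated as a library deposited again.

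Genes were named by rule: the 4 genes, the measured genes of the neurotrophin, p75, LGI, BEX/TCEAL, BRINP and NFI lists, up to 4 genes with the largest change from each other list, neighbours within 500 kb and the 5 most alike in pattern (log2 CPM, prior count of 2). Some genes that these rules would name are not reported here and were left out of the lists. Any other gene was named once its values were known. The members and the 18 lists were chosen with earlier results of these data known. Gene positions are from GENCODE on GRCm38 and promoters from RefSeq on GRCm38.p6. Figures were drawn with matplotlib 3.10.9 in Python 3.11.15.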

Additional observations from a re-analysis of the deposited data

Results flagged for a closer look

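Differences between LM9 and LM1 passed edgeR's test for 35 of the named genes, 19 higher and 16 lower in LM9, in a contrast in which 22.0% of all genes tested passed. In log2 units *Ngfr* was higher by 1.14 and *Lgi2* by 2.51. Of the neurotrophin genes, *Bdnf* (1.68) and *Nradd* (3.66) were higher in LM9, and *Ntrk3* (-5.82, a gene low in every tumour), *Sort1* (-2.35) and *Sorcs2* (-3.14) lower. Of the adaptors and partners, *Traf6* (0.56), *Sqstm1* (0.90) and *Dlg4* (2.08) were higher, and *Bex3* (-1.18), *Tceal8* (-3.11) and *Tceal9* (-0.94) lower. Of the neural and neural crest markers, *Map2* (1.57), *Ina* (2.55), *Mitf* (1.45) and *Egr2* (1.26) were higher, and *Tubb3* (-1.91) and *Gap43* (-2.14) lower. Among the remaining lists, *Ehmt2* (0.63), *Mylk* (1.13), *Cd68* (2.89) and *Nfia* (3.30) were higher, and *Hdac2* (-0.53), *Krt5* (-6.56), *Krt14* (-3.59), *Acta2* (-5.94), *Krt18* (-5.50), *C1qa* (-1.82) and *Lum* (-3.51) lower. Among neighbours, *Spop* (0.55), *Ccdc149* (1.73), *Pi4k2b* (0.81) and *Zcchc4* (0.58) were higher and *Snf8* (-0.76) lower. *Dlg4* and *Mylk* were called in opposite directions in LM1 and LM9 against HR1. Of the 35, 8 passed whichever of the 9 tumours was left out (*Lgi2*, *Dlg4*, *Mitf*, *Acta2*, *Mylk*, *Cd68*, *Lum* and *Pi4k2b*). The other 27, *Ngfr* among them, lost the call without at least 1 tumour. These fits took the spread from the HR1, LM1 and LM9 tumours together, and with LM1 and LM9 alone *Ngfr* passed (adjusted p = 0.0022).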

How the results depend on the processing

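Genes called in LM9 versus LM1 were 3102, and 7709 when only these groups were fitted; leaving out 1 tumour gave 1150 (LM1 replicate 1) to 6413 (HR1 replicate 1). Genes called in LM1 versus HR1 were 4994, and 3008 with only these groups; leaving out 1 tumour gave 3121 to 7453. Genes called in LM9 versus HR1 were 5958, with 3768 to 7862 on leaving out 1 tumour, and for LM1 and LM9 together 6138, with 4928 to 7902. The difference of *Ngfr* in LM9 versus LM1 was 0.81 to 1.37 on leaving out 1 tumour and passed under each of the other alternatives. *Lgi2* passed under all of them. *Bex1* and *Brinp3*, kept by their HR1 counts, could not be fitted with LM1 and LM9 alone, and their other fits say nothing of LM9 against LM1. Over the 222 other called results, the alternatives gave 3884 values, of which 3387 stayed past the threshold in the same direction, 495 missed it and 2 turned: *S100b* in LM1 and LM9 together ran from -5.73 to 2.58 (without HR1 replicate 1) on leaving out 1 tumour, and *Ntrk2* in LM1 versus HR1 from -6.39 to 0.13 (without HR1 replicate 2). The cause was not tested.

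The replicate numbers do not pair the tumours: deviations of same-numbered tumours from their model correlated at -0.117 to 0.162. With the number as a block, calls fell to 5234, 4204, 5078 and 2295 in the 4 comparisons, *Ngfr* in LM9 versus LM1 was 1.11 (adjusted p = 0.0408) and *Lgi2* 2.51 (adjusted p = 0.00564).

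With 3 tumours a model, 1 line each for LM1 and LM9, and 3 counts as the floor, levels of *Bex1* and *Brinp3* in LM tumours with 0 counts are upper limits only, and folds that rest on 1 or 3 counts have wide intervals.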
